A study of Mus musculus with 8 samples.

Results

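The genes described here are the nuclear-encoded genes of mitochondrial oxidative phosphorylation (OXPHOS), measured by bulk RNA-seq in long-term hematopoietic stem cells (LT-HSCs) from the fetal liver of mouse embryos at E14.5. Members were taken by name: protein-coding genes whose symbol starts with Ndufa, Ndufb, Ndufc, Ndufs, Ndufv, Uqcr or Atp5, together with Sdha to Sdhd, Cyc1 and the Cox4 to Cox8 families. The rule found 99 genes, and 95 of them held 10 or more reads summed over the 8 samples. Of these 95, 36 belonged to complex I, 4 to complex II, 9 to complex III, 15 to complex IV and 16 to complex V, and 15 were associated factors that share a prefix with the subunits, such as the assembly factors Ndufaf1 to Ndufaf8. The 4 genes left out were Cox6a2 (3 reads), Cox8b (2 reads), Cox8c (0 reads) and a second gene model of Atp5o (0 reads). In all, 20610 genes of the 55487 in the count table passed the same filter and were tested.

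The study asked what loss of IκBα, the inhibitor encoded by Nfkbia that holds NF-κB in the cytoplasm, does to these cells. Each sample was a pool of 500 sorted cells with the surface phenotype LSK CD48- CD150+, from 3 wild-type embryos (WT1 to WT3), 3 heterozygous embryos (HET1 to HET3) and 2 homozygous knockout embryos (KO1 and KO2) of a germline Nfkbia knockout line, so the gene was missing in every cell of the embryo and not in stem cells alone. The methods also name a Gfi1:tomato reporter line, and the labels do not say whether any of these embryos carried it. A further KO sample was discarded by the study for its sequencing quality and is not analysed here. WT1, WT2 and HET1 were male and labelled total RNA, whereas WT3, HET2, HET3, KO1 and KO2 were female and labelled polyA RNA, so sex and this label cannot be told apart, and neither KO sample had a male counterpart.

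OXPHOS is carried out by 5 complexes of the inner mitochondrial membrane. Complex I (NADH dehydrogenase) and complex II (succinate dehydrogenase, also an enzyme of the tricarboxylic acid cycle) pass electrons to ubiquinone, complex III (cytochrome bc1) passes them on to cytochrome c, and complex IV (cytochrome c oxidase) reduces oxygen. Complexes I, III and IV pump protons, and complex V, the ATP synthase, uses the returning protons to make ATP. Most subunits are encoded in the nucleus and a small core by the mitochondrial genome. Hematopoietic stem cells of adult bone marrow are known for a low reliance on OXPHOS compared with the dividing progenitors they give rise to. The cells measured here are from fetal liver.

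The libraries held between 17895973 and 21720972 counted reads, and the 95 members took 2.5% to 3.7% of them. Nfkbia (ENSMUSG00000021025, chromosome 12, 55489410 to 55492647, GRCm38) was counted with 968, 1621 and 450 reads in WT1, WT2 and WT3, with 439, 574 and 243 reads in HET1, HET2 and HET3, and with 1 read in KO1 and 0 reads in KO2, which bears out the KO labels. Among the others it does not separate WT from HET, since WT3 (23.4 CPM) was level with HET1 (23.3 CPM) and below HET2 (29.0 CPM). Positions are those of GRCm38 throughout. Every level below is given in CPM, the reads of a gene scaled to a common library size, by trimmed mean of M values (TMM).

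The LT-HSC label was met least well in WT3 and HET3. Summed over 9 LT-HSC markers (Slamf1, Kit, Ly6a, Procr, Mecom, Hlf, Fgd5, Meis1 and Gata2), CPM was 1454, 1506 and 260.3 in WT1, WT2 and WT3, 545, 460.0 and 232 in HET1, HET2 and HET3, and 1320 and 948 in KO1 and KO2. HET3 held 0 reads of Ly6a, which encodes the Sca-1 antigen of the sort, and 19 reads of Procr, and WT3 held 96 and 163, whereas KO1 held 1049 and 1978. HET1 held 375 and 682 reads of them, and HET2 279 and 607. Slamf1, which encodes the CD150 antigen of the sort, was at 19.8 CPM in WT3, 13.0 in HET3, 24.9 in HET1 and 22.7 in HET2. In WT1, WT2, KO1 and KO2 it was at 124, 119, 83.2 and 51.1 CPM. Kit, also a positive antigen of the sort, did not follow, at 148 CPM in WT3 and 170 CPM in HET3 against 135 to 231 CPM in the other samples. The 8 hepatocyte markers, among them Alb and Afp, summed to 52.9, 84.1 and 1483 in WT1, WT2 and WT3, 145, 207 and 753 in HET1, HET2 and HET3, and 49.8 and 299 in KO1 and KO2. WT3 and HET3 were therefore lowest in the LT-HSC list and highest in the hepatocyte list. The main results over all members are given below with and without them. Results by complex, by pathway list and, apart from Cox4i2, by gene are given with them only. HET1 and HET2 also lay below WT1, WT2, KO1 and KO2 in the LT-HSC list, so leaving out WT3 and HET3 does not even out these markers. Of the other lists, erythroid markers were highest in HET1 (14651 CPM, against 706 to 5581 in the others), megakaryocyte markers ran from 23.3 CPM in HET3 to 1258 in WT2, myeloid markers from 142 in HET3 to 989 in WT3, endothelial markers from 4.27 in HET3 to 80.3 in WT2 and lymphoid markers, 4 of 6 with reads, from 45.8 in WT3 to 89.3 in HET1.

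The promoters are shown first because many OXPHOS genes are known to be bound near their start by the factors NRF1, GABP (an ETS factor) and YY1. Windows of 300 bases, from 250 before to 50 after the start, were available from RefSeq (GRCm38.p6) for 77 of the 95 members. Each window was searched on both strands for the letters GCGCATGC (NRF1, whose matches on both strands can overlap), CCGGAAG (ETS) and AAGATGG (YY1). At least 1 of these stood in the windows of 37 of the 77 members (48.1%), against 18.6% of all 27025 genes with a window. By motif, NRF1 letters stood in 15.6% of members against 3.05% of all genes, ETS letters in 27.3% against 9.93%, and YY1 letters in 14.3% against 7.28%. For each complex the window with the most kinds of match is printed, ties going to the lowest fold change in KO, and that of Cox7a2l, the associated member with the highest fold change, follows as one without a match. These are Ndufs6 (chr13:73328433-73328732, minus strand), Sdhb (chr4:140961021-140961320, plus strand), Uqcr11 (chr10:80406772-80407071, minus strand), Cox6a1 (chr5:115348909-115349208, minus strand), Atp5k (chr5:108434350-108434649, minus strand) and Cox7a2l (chr17:83514284-83514583, minus strand), with matches in capitals:
Ndufs6: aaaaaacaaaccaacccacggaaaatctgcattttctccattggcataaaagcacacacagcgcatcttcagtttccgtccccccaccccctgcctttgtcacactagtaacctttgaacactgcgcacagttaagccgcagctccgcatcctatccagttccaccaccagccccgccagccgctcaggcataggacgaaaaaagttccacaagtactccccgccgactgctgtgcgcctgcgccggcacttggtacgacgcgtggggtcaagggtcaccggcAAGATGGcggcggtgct
Sdhb: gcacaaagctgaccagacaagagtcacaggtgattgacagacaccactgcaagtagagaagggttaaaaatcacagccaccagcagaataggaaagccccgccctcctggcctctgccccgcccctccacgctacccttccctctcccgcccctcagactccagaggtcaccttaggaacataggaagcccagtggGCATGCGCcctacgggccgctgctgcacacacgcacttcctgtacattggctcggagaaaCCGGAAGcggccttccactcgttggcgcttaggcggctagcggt
Uqcr11: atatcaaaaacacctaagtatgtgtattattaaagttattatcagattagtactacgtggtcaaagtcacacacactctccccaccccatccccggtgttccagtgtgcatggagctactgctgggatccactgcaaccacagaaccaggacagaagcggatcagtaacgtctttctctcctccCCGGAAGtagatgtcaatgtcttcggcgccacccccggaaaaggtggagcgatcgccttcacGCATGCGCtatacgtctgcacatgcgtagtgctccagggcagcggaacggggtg
Cox6a1: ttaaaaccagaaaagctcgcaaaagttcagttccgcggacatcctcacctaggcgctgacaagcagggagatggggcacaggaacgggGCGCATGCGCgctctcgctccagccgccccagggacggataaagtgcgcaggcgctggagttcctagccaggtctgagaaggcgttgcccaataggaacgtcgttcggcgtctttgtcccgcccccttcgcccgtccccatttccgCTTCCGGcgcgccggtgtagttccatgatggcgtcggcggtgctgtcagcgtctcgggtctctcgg
Atp5k: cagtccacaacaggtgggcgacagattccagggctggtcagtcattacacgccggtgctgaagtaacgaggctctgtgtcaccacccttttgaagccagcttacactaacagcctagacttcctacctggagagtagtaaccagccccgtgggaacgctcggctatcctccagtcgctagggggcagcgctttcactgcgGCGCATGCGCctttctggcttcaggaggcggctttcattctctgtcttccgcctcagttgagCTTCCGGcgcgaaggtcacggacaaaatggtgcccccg
Cox7a2l: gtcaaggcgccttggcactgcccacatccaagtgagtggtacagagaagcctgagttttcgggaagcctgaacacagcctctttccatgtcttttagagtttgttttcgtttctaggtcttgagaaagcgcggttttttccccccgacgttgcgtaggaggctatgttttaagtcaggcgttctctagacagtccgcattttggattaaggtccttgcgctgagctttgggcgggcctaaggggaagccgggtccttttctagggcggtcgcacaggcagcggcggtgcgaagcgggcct

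In the Sdhb window the NRF1 letters began 54 bases before the start and the ETS letters 6 bases after it. Uqcr11 held ETS letters from 66 bases and NRF1 letters from 4 bases before the start. Cox6a1 and Atp5k each carried the NRF1 letters on both strands in 1 overlapping stretch, beginning 162 and 50 bases before the start, and ETS letters 16 bases before and 12 bases after it. Ndufs6 had the YY1 letters 33 bases after its start. A match says only that these letters are in the window. In KO against the other samples, a comparison described below, the median log2 fold change was -0.55 over the 37 members with a match and -0.64 over the 40 without, and 22 and 23 of them, respectively, were lower at an unadjusted p under 0.05.

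The 8 samples fell into an order that nearly all members shared. Summed CPM of the 95 members was 24498, 21586 and 42201 in WT1, WT2 and WT3, 34396, 39664 and 43061 in HET1, HET2 and HET3, and 23674 and 30308 in KO1 and KO2. WT2, KO1 and WT1 were lowest, KO2 and HET1 lay between, and HET2, WT3 and HET3 were highest, so the 2 KO samples lay inside the range of the WT samples. For 80 of the 95 members (84.2%) the 3 lowest samples were WT1, WT2 and KO1, against 17.8% of all genes tested. This order was nearly the reverse of the order by summed LT-HSC markers, in which KO1 and WT1 changed places and every other sample kept its rank. It also ran with library complexity, since the number of genes with 10 or more reads was 15125, 14663 and 14611 in WT2, KO1 and WT1, 14186 and 14174 in KO2 and HET1, and 13720, 13392 and 12308 in HET2, WT3 and HET3. The part of either in the levels of the members was not tested. In bulk samples a smaller share of cells with high levels and less RNA in each cell cannot be told apart.

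**Figure D1:**
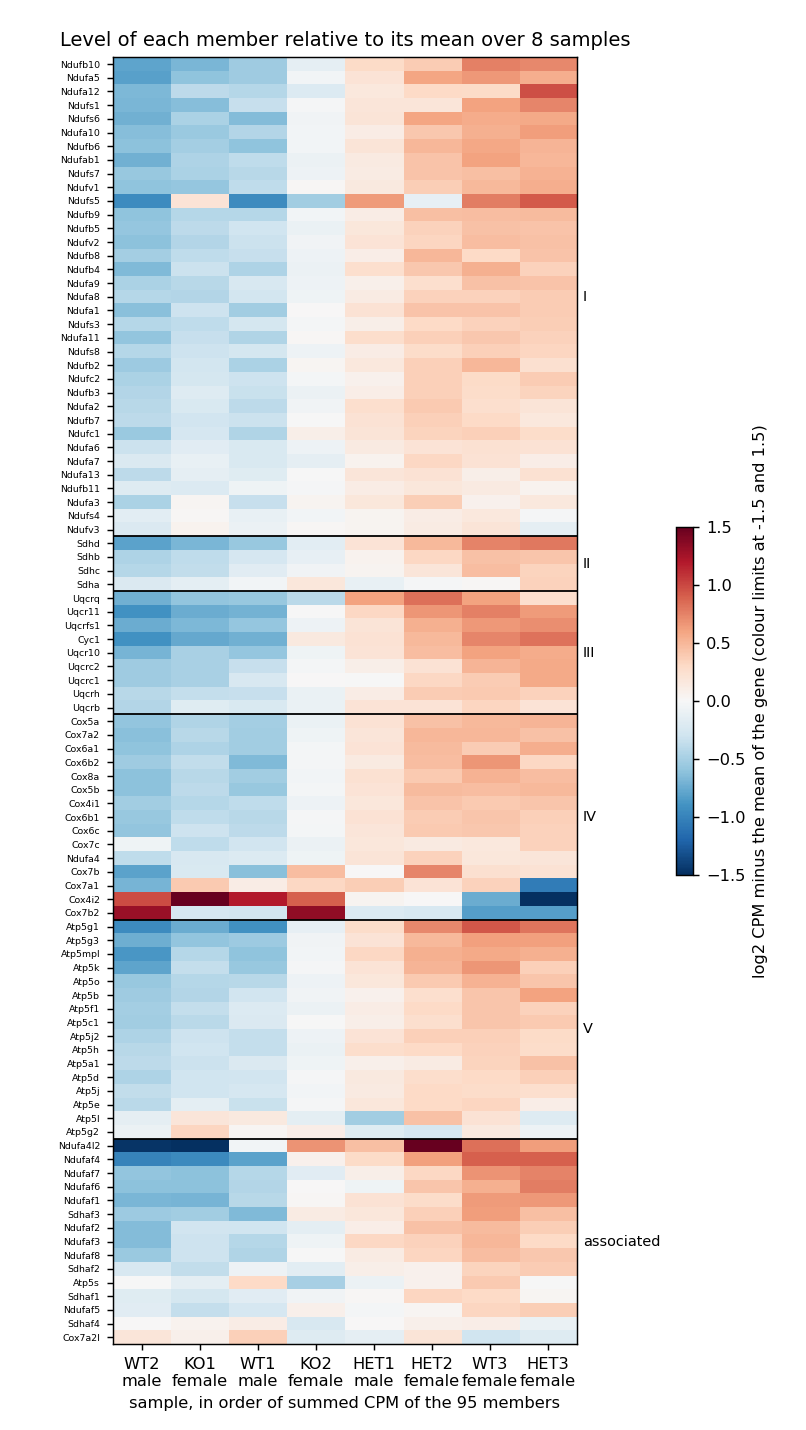
Heat map of 94 of the 95 members (rows, by complex and by fold change in KO) in the 8 samples (columns, ordered by summed CPM of the members), coloured by log2 CPM minus the mean of the gene over the 8 samples. Most rows run from low in WT2, KO1 and WT1 to high in WT3 and HET3, and Cox4i2, Cox7a2l and Sdhaf4 are among the rows that do not.

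**Figure D2:**
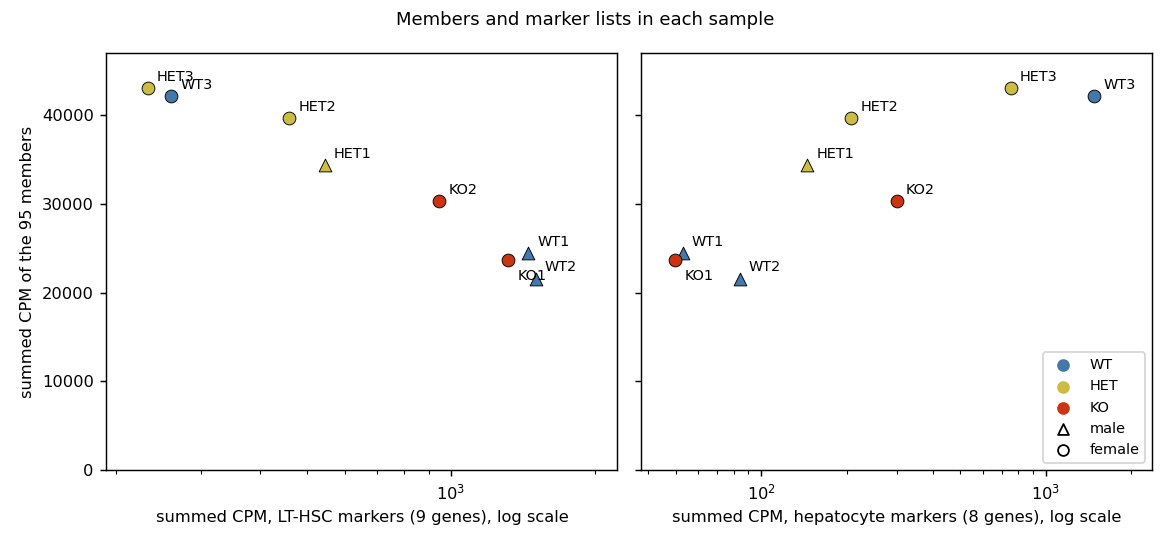
Summed CPM of the 95 members (vertical axis) against summed CPM of the LT-HSC markers (left) and of the hepatocyte markers (right, both on a log scale), with 1 point for each sample, coloured by genotype and shaped by sex. The members are highest in WT3 and HET3, where the LT-HSC markers are lowest, and lowest in WT1, WT2 and KO1, where they are highest.

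The study pooled WT and HET samples as the reference (WT/HET) and fitted sex beside genotype. Since both KO samples were female, the KO fold change of this fit sets them against WT3, HET2 and HET3. The male samples enter it only through the scaling and the estimated spread. In this comparison 90 of the 95 members had a negative log2 fold change in IκBα KO LT-HSCs, with a median of -0.59 against 0.13 over all genes tested. Over the 11101 genes with 10 or more reads in every sample, a filter that 91 of the 95 members passed, the median was -0.03 and 16.2% were lower at an unadjusted p under 0.05. At that threshold, 57 members were lower and 1 was higher, where 9.48% of all genes were lower and 15.7% higher. No member reached an adjusted p under 0.05 (edgeR quasi-likelihood test with Benjamini-Hochberg adjustment), and neither did any of the 20610 genes (0.0%), Nfkbia included (adjusted p = 0.0862), although DESeq2 on the same counts placed 30 members lower at an adjusted p under 0.05, against 4.67% of all genes. The lowest adjusted p of a member was 0.148. The count of 57 became 33 without WT3 (5.25% of all genes), 36 without HET3 (4.90%) and 2 without KO1 (1.67%), and 1 in a fit blocked by replicate number (0.951%), with none higher and a median of -0.58. With WT3 and HET3 both left out, the median was -0.56 and 1 member was lower at an unadjusted p under 0.05, against 1.02% of all genes.

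These fold changes rest on the sex term, so a fit among female samples alone makes the same contrast with its own scaling and spread. Among female samples alone, 2 KO against WT3, HET2 and HET3, 75 members were lower at an unadjusted p under 0.05 (12.3% of all genes), none was higher, the median was -0.64, and again no member and no gene (0.0%) reached an adjusted p under 0.05 with edgeR, whereas DESeq2 placed 69 members below it in the lower direction (8.98% of all genes). With edgeR this turned on 1 library and on the filter, since 53 members and 1621 genes passed the adjusted threshold without KO2, and 45 members and 2236 genes with no filter on low counts. Both KO samples lay below all 3 female WT/HET samples for 80 members (21.4% of all genes). Without WT3 and HET3 only HET2 was left as a female reference, and 1 member was lower at an unadjusted p under 0.05 (0.485% of all genes) with a median of -0.56. Against the 3 male samples the picture was another: the median was 0.01, 58 members had a positive fold change, and no member was lower at an unadjusted p under 0.05 (0.762% of all genes). With no term for sex the median was -0.34 and 0 members passed the unadjusted threshold. Both KO samples lay below all 6 WT/HET samples for 1 member (1.79% of all genes) and above all 6 for none (3.05%). In the log2 values that the authors corrected for sex before deposit, both KO samples lay below all 6 for 77 members (16.5% of all genes).

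**Figure D3:**
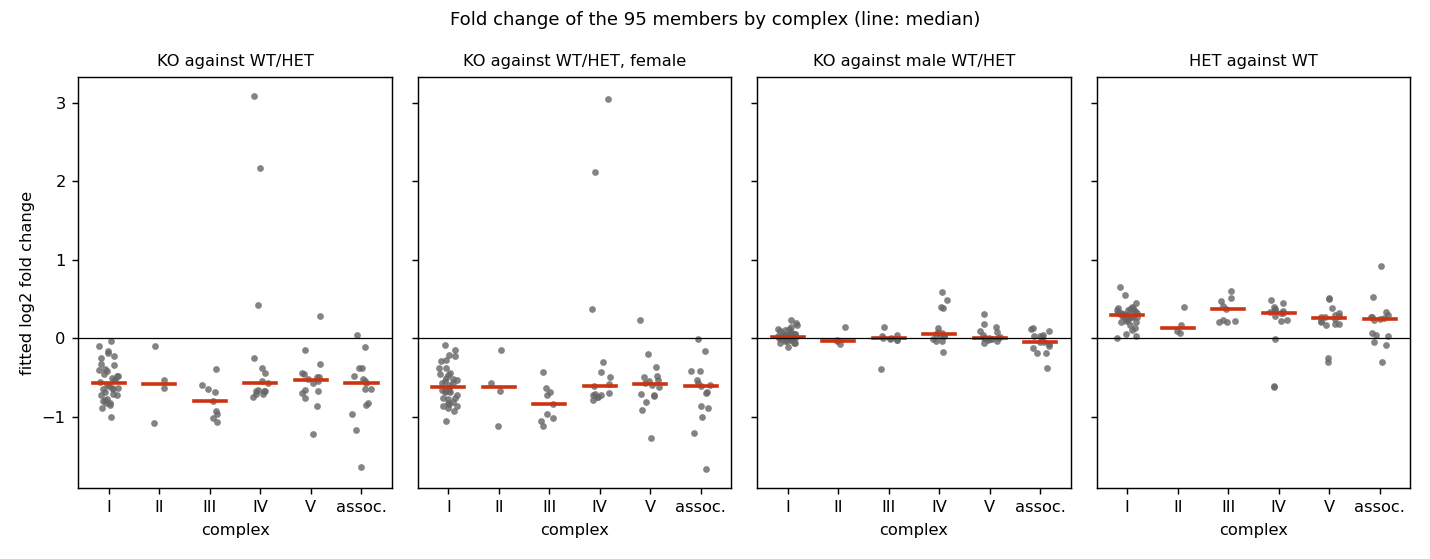
Fitted log2 fold change (vertical axis) of each of the 95 members by complex, with 1 point for each gene and a line at the median, in 4 comparisons. The medians of complexes I to V lie between -0.84 and -0.54 in KO against WT/HET and among female samples, and between -0.03 and 0.05 against male samples.

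Many members were also lower in male than in female samples, with no KO sample in the fit. Among WT and HET samples this held for 59 members at an unadjusted p under 0.05 (12.0% of all genes), with a median of -0.55, and all 3 male samples lay below all 3 female samples for 72 members (17.5% of all genes). By edgeR no member, and 0.0146% of all genes, reached an adjusted p under 0.05, and DESeq2 placed 42 members below it in the lower direction (7.79% of all genes). With the replicate number as a block 1 member was lower (0.679% of all genes), and with WT3 and HET3 left out 1 member was lower (2.58% of all genes) and the median was -0.19. The count was 17 without WT1 (5.4% of all genes), 22 without WT2 (5.59%), 2 without WT3 (1.51%), 38 without HET3 (7.35%) and 79 without HET1 (16.1%). Without HET1, the fit set WT1 and WT2 against WT3 alone. Past the adjusted threshold there were 28 members without HET2 and 34 with no filter on low counts. The shares of all genes past it in those fits are not given here, so these counts do not set the members apart from other genes. The female samples of this comparison are also the reference of KO among female samples.

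With all WT and HET samples in the fit, few members passed any threshold between HET and WT. The median log2 fold change was 0.28 against 0.00 over all genes, 86 members had a positive fold change, 1 member, Ndufa3, was higher at an unadjusted p under 0.05 (1.8% of all genes), no member and no gene (0.0%) reached an adjusted p under 0.05 with edgeR, and no member did with DESeq2. All 3 HET samples lay above all 3 WT samples for Ndufa3, Ndufa4 and Ndufa13, the last named after its values were seen (3 of 95 members, 4.2% of all genes), with an exact permutation p of 0.1, the smallest that 3 against 3 allows. The count moved with single samples: 6 members were higher without HET2 (5.17% of all genes), 2 without HET3 (1.43%) and 0 without WT1 or WT2. It moved further without WT3, with or without HET3, but those fits left 1 sample in an arm. Their counts are given only with the dependence on the processing below. Without WT3, or without WT3 and HET3, no female WT sample was left. With the sex term these fits set HET1 alone against WT1 and WT2, and the median was 0.62 in each. Without HET1 the fit set HET2 and HET3 against WT3 alone, and the median was -0.06. In the fit with an interaction, the HET against WT difference was larger in male than in female samples for 49 members at an unadjusted p under 0.05 (6.39% of all genes), and for none at an adjusted p under 0.05.

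Complex I, which takes electrons from NADH, supplied 36 members, all with a negative log2 fold change in KO against WT/HET, of which 20 passed the unadjusted threshold. The summed CPM of complex I was 6294, 5624 and 10412 in WT1, WT2 and WT3, 8764, 10026 and 10465 in HET1, HET2 and HET3, and 6267 and 7726 in KO1 and KO2. KO samples averaged 6997 ± 1032 (SD, n = 2), female WT/HET samples 10301 ± 239 (n = 3) and male ones 6894 ± 1654 (n = 3), so the KO mean differed from the male mean by less than either SD. Ndufs7 (ENSMUSG00000020153, chromosome 10, 80249121 to 80256794), an iron-sulfur core subunit near the ubiquinone site, was counted at 335, 302 and 607 CPM in WT1, WT2 and WT3, 487, 601 and 639 in HET1, HET2 and HET3, and 319.9 and 424 in KO1 and KO2. Its log2 fold change was -0.73 (SE 0.23, adjusted p = 0.153), with an exact permutation p of 0.357 for 2 KO against 6 WT/HET samples, a design whose smallest two-sided p is 0.0714. WT1, WT2 and KO1 were low, WT3 and HET3 high, and the groups overlapped.

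Further core subunits of complex I had negative fold changes. The log2 fold change was -0.82 for Ndufs1, the largest iron-sulfur subunit, -0.73 for Ndufv1, which binds NADH and FMN, -0.64 for its partner Ndufv2, -0.53 for Ndufs3 and -0.51 for Ndufs8, all with an unadjusted p under 0.05. Over the 7 core and 29 accessory subunits of complex I the median was -0.64 and -0.55.

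Accessory subunits of complex I spanned the range of the complex. Ndufb10, a membrane-arm subunit, had its lowest log2 fold change, -1.01 (SE 0.33, adjusted p = 0.154), at 200.0, 167 and 489 CPM in WT1, WT2 and WT3, 354, 377 and 477 in HET1, HET2 and HET3, and 181 and 264 in KO1 and KO2. Ndufv3, a small subunit next to the NADH site, had the highest, -0.03 (SE 0.16, adjusted p = 0.913), and its 8 levels stayed between 146 CPM in WT2 and 193 CPM in WT3. Ndufs4, another accessory subunit, named after its values were seen, was at -0.10 on the log2 scale. Ndufa12 and Ndufb8 were at -0.85 and -0.63 in KO, and at 0.55 and 0.35 in HET against WT, where they were among the 5 members with the smallest p (unadjusted p = 0.0520 and 0.0635).

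Ndufa3, the 1 member past the unadjusted threshold in HET against WT, is an accessory subunit of complex I. Its CPM was 170.2, 156 and 226 in WT1, WT2 and WT3, 244, 279 and 241 in HET1, HET2 and HET3, and 222 and 222 in KO1 and KO2. All HET samples were above all WT samples, with a log2 fold change of 0.39 (SE 0.16, adjusted p = 0.932) and an unadjusted p of 0.0455, and both KO samples lay between the WT samples WT1 and WT2 and the HET samples, close to WT3.

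Complex II is the smallest, with 4 subunits that are all encoded in the nucleus, and its members spread widely. Sdhd (ENSMUSG00000000171, chromosome 9, 50596357 to 50603812), which anchors the enzyme in the membrane, was counted at 618, 526 and 1543 CPM in WT1, WT2 and WT3, 1058, 1292 and 1588 in HET1, HET2 and HET3, and 569.7 and 822 in KO1 and KO2. Its log2 fold change in KO against WT/HET was -1.08 (SE 0.32, adjusted p = 0.151), the unadjusted p was 0.00907, and among female samples it was -1.13 (SE 0.22, adjusted p = 0.119). KO1 lay between WT2 and WT1, and KO2 lay above both and below the 4 others.

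Sdhb, the iron-sulfur subunit, had a log2 fold change of -0.63 (SE 0.19, adjusted p = 0.152), and Sdhc, the other anchor, of -0.53 (SE 0.19, adjusted p = 0.162). Sdha, the flavoprotein that oxidises succinate, was counted at 386, 341 and 400.3 CPM in WT1, WT2 and WT3, 367, 391 and 503 in HET1, HET2 and HET3, and 357 and 446 in KO1 and KO2. Its log2 fold change was -0.10 (SE 0.18, adjusted p = 0.738), KO2 was second only to HET3, and the genotypes overlapped throughout. Within 1 enzyme the difference between KO and WT/HET thus ran from -1.08 for Sdhd to -0.10 for Sdha.

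Complex III had the lowest median of the 5 complexes, -0.80, and 8 of its 9 members passed the unadjusted threshold. Its summed CPM was 2860, 2496 and 5736 in WT1, WT2 and WT3, 4470, 5370 and 5811 in HET1, HET2 and HET3, and 2684 and 3801 in KO1 and KO2. Uqcrfs1 (ENSMUSG00000038462, chromosome 13, 30540308 to 30545362), the Rieske iron-sulfur protein, was at 279.8, 249.9 and 654 CPM in WT1, WT2 and WT3, 477, 604 and 676 in HET1, HET2 and HET3, and 262 and 395 in KO1 and KO2. Its log2 fold change was -0.97 (SE 0.30, adjusted p = 0.152) and its unadjusted p 0.0121. KO1 lay between WT2 and WT1, and KO2 below the 4 remaining samples.

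Cyc1, which encodes cytochrome c1, was at 346, 306 and 949 CPM in WT1, WT2 and WT3, 664, 798 and 1010 in HET1, HET2 and HET3, and 336 and 632 in KO1 and KO2. On the log2 scale it was at -0.92 (SE 0.39, adjusted p = 0.186) in KO against WT/HET. KO2 was close to HET1, and KO1 to WT1. The core proteins Uqcrc1 and Uqcrc2 were at -0.65 and -0.69. Uqcrq, a small accessory subunit, had the lowest log2 fold change of the complex, -1.07 (SE 0.40, adjusted p = 0.162), at 273, 246 and 615 CPM in WT1, WT2 and WT3, 616, 720.3 and 482 in HET1, HET2 and HET3, and 269.6 and 305 in KO1 and KO2, and both KO samples were below WT3 and all HET samples, KO1 between WT2 and WT1 and KO2 above both. Uqcrb, at -0.39 (SE 0.20, adjusted p = 0.246), was the highest, and 43.4% of its transcript windows of 50 bases also occur in transcripts of other genes, so uniquely counted reads may miss part of it.

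Complex IV holds the members with tissue isoforms. The isoforms found in most tissues carried most transcripts per length: Cox4i1 98.9% of the Cox4 pair, Cox7a2 99.5% of Cox7a1 and Cox7a2, Cox6b1 83.6% of the Cox6b pair and Ndufa4 99.7% against Ndufa4l2, as means of CPM per kilobase of transcript over 8 samples. Cox7b took 99.9% against Cox7b2, and the muscle isoforms Cox6a2 and Cox8b were at 3 and 2 reads in all. Over all 15 members the median log2 fold change in KO was -0.57, 8 were lower and 1 was higher at an unadjusted p under 0.05.

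Cox4i1 (ENSMUSG00000031818, chromosome 8, 120668222 to 120674207), the regulatory subunit IV, was at 762, 689 and 1302 CPM in WT1, WT2 and WT3, 1119, 1336 and 1329 in HET1, HET2 and HET3, and 735 and 938 in KO1 and KO2. Its log2 fold change was -0.66 (SE 0.24, adjusted p = 0.160). Other widely expressed subunits were at -0.75 for Cox5a, the lowest of the complex, -0.71 for Cox7a2, -0.71 for Cox6a1, -0.68 for Cox8a, -0.67 for Cox5b, -0.57 for Cox6b1, -0.54 for Cox6c and -0.38 for Ndufa4. Cox6b2, known as the testis isoform, was at 70.9, 77.6 and 178 CPM in WT1, WT2 and WT3, 123, 155 and 139.7 in HET1, HET2 and HET3, and 86.9 and 110.3 in KO1 and KO2 and -0.68 on the log2 scale. Cox7c was at -0.45, with 53.0% of its windows shared with other genes.

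Cox7b, a small membrane subunit, broke the common order. Its CPM was 233, 206 and 426 in WT1, WT2 and WT3, 362, 598 and 419 in HET1, HET2 and HET3, and 307 and 497 in KO1 and KO2. HET2 and KO2 were the highest samples, its log2 fold change in KO was -0.26 (SE 0.31, adjusted p = 0.622), and in HET against WT it was 0.49 (unadjusted p = 0.0520).

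Cox4i2 (ENSMUSG00000009876, chromosome 2, 152754173 to 152765037), the isoform of subunit IV known from lung and from low oxygen, had its samples in nearly the opposite order to Cox4i1. It was counted with 351, 339 and 81 reads in WT1, WT2 and WT3, with 138, 142 and 6 reads in HET1, HET2 and HET3, and with 450 and 271 reads in KO1 and KO2. In CPM this was 16.4, 14.2 and 4.22 in WT1, WT2 and WT3, 7.34, 7.16 and 0.356 in HET1, HET2 and HET3, and 22.0 and 13.3 in KO1 and KO2. The log2 fold change was 2.17 (SE 0.88, adjusted p = 0.179) with an unadjusted p of 0.0374, and this was the 1 member that was higher in KO at the unadjusted threshold. KO1 was the highest sample, KO2 was just below WT2, and HET3 was far below the others. As a share of the Cox4 pair per kilobase, Cox4i2 took 2.20%, 2.10% and 0.34% in WT1 to WT3, 0.68%, 0.56% and 0.03% in HET1 to HET3, and 3.03% and 1.46% in KO1 and KO2. Without HET3 its log2 fold change was 1.62, with no term for sex it was 1.09, and with WT3 and HET3 left out it was 1.27, none of them with an adjusted p under 0.05. Apart from KO1, WT1 and WT2, which led both, the samples stood in the same order by this share as by summed LT-HSC markers, whose part in the result was not tested.

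Cox7a1, the heart and muscle isoform, had between 9 and 33 reads a sample and a log2 fold change of 0.42 (SE 0.68, adjusted p = 0.720). Cox7b2 held 19 reads in all, 15 of them in WT2 and KO2, so its fitted value of 3.09 (adjusted p = 0.252), the highest of the complex, rests on a few reads.

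Complex V held the most abundant members. Per kilobase of transcript, Atp5b (2000 CPM per kilobase over 8 samples), Atp5g3 (1829), Cox4i1 (1342), Uqcr10 (1097) and Atp5a1 (1028) led the 95 members, whose median was 261. Atp5b (ENSMUSG00000025393, chromosome 10, 128083273 to 128090391), the catalytic beta subunit, was at 3029, 2554 and 4933 CPM in WT1, WT2 and WT3, 3870, 4390 and 5603 in HET1, HET2 and HET3, and 2724 and 3559 in KO1 and KO2. Its log2 fold change was -0.66 (SE 0.25, adjusted p = 0.162), and the exact permutation p was 0.357. WT1, WT2 and KO1 were the 3 lowest samples, and KO2 was below HET1.

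The fitted values of its F1 partners were -0.49 for the alpha subunit Atp5a1, -0.55 for gamma (Atp5c1), -0.45 for delta (Atp5d) and -0.33 for epsilon (Atp5e), of which the last pair did not pass the unadjusted threshold. The 3 genes of subunit c, whose mature proteins form the same rotor ring, differed in level, with fitted values from -1.23 to 0.28. Atp5g3 carried 99.5% of their transcripts per length and had a log2 fold change of -0.87 (SE 0.30, adjusted p = 0.157). Atp5g1 carried 0.37%, a share that depends on its transcript of 4715 bases, where that of Atp5g3 has 723. Its CPM was 14.8, 14.4 and 53.4 in WT1, WT2 and WT3, 33.7, 46.0 and 48.9 in HET1, HET2 and HET3, and 16.7 and 25.5 in KO1 and KO2. Its fitted value was the lowest of the complex, -1.23 (SE 0.40, adjusted p = 0.154). Atp5g2 carried 0.15% and had the highest, 0.28 (SE 0.48, adjusted p = 0.733), but 87.4% of its windows occur in other genes, so its low level cannot be read as low expression. Atp5l, with 84.9% of windows shared, was likewise counted at 7.64 CPM per kilobase.

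**Figure D4:**
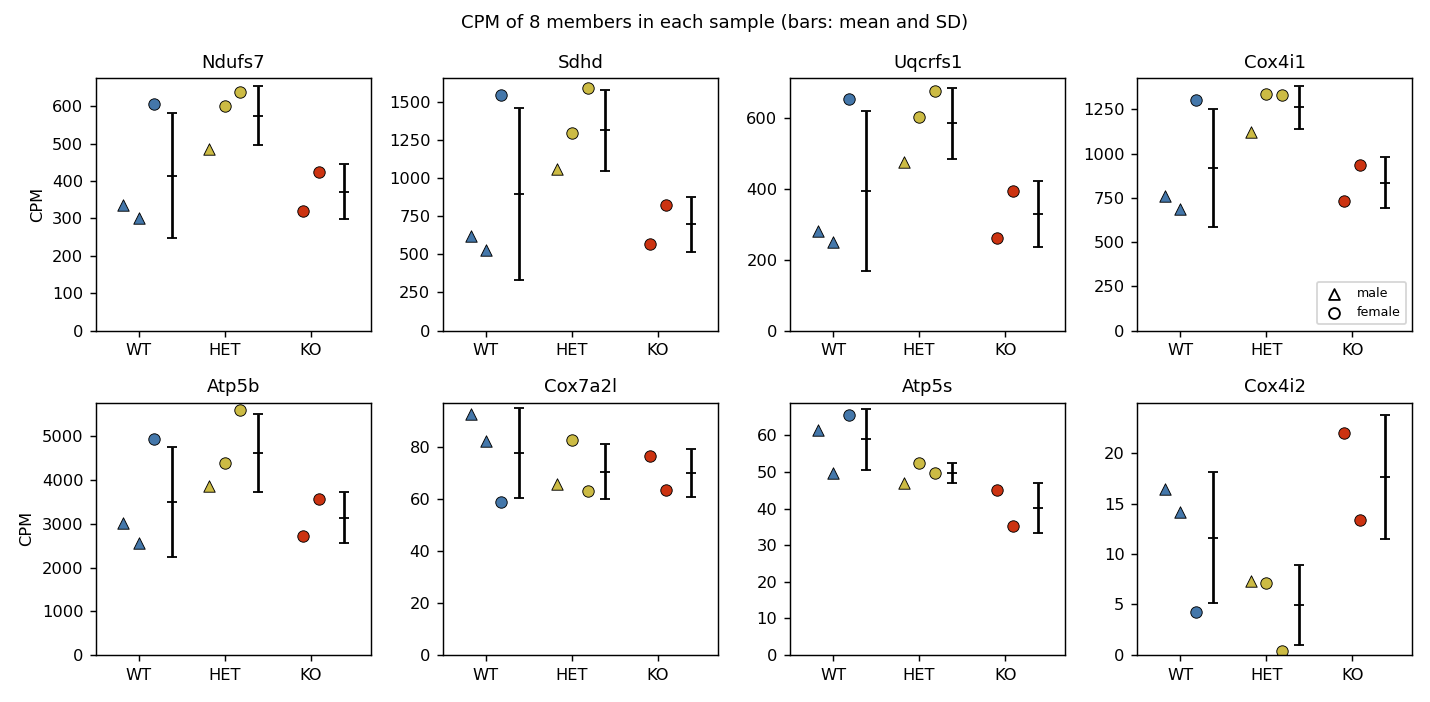
CPM (vertical axis, from 0) of 8 members in each sample by genotype, with triangles for male and circles for female samples and bars for the mean and SD of each genotype. For Ndufs7, Sdhd, Uqcrfs1, Cox4i1 and Atp5b both KO samples lie below the 3 female WT/HET samples and above WT2, Atp5s has both KO samples below all others, and Cox4i2 is highest in KO1.

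The 15 associated factors had a median log2 fold change of -0.57, and 7 were lower at an unadjusted p under 0.05. Ndufaf7, a methyltransferase that acts in the assembly of complex I, had the smallest p of all members (0.00521 unadjusted). Its CPM was 68.2, 60.6 and 146 in WT1, WT2 and WT3, 97.2, 113 and 153 in HET1, HET2 and HET3, and 59.5 and 81.4 in KO1 and KO2, and its log2 fold change was -0.96 (SE 0.26, adjusted p = 0.148). KO1 was the lowest sample and KO2 was above WT1 and WT2, so the groups overlapped. Ndufaf6, another assembly factor of complex I, was at -0.85 (SE 0.25, adjusted p = 0.151).

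Atp5s (ENSMUSG00000054894, chromosome 12, 69724950 to 69744660), known as factor B of the ATP synthase, was the only member whose 2 KO samples lay below all 6 WT/HET samples. Its CPM was 61.4, 49.6 and 65.7 in WT1, WT2 and WT3, 46.9, 52.4 and 49.8 in HET1, HET2 and HET3, and 45.0 and 35.4 in KO1 and KO2, and its log2 fold change was -0.48 (SE 0.21, adjusted p = 0.203). The exact permutation p was 0.0714, the smallest that this design can give, and 1 such member of 95 is 1.05%, below the share of all genes given above.

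Cox7a2l, which helps complexes III and IV join in supercomplexes, had the highest log2 fold change of the associated factors, 0.04 (SE 0.22, adjusted p = 0.935). At 92.7, 82.2 and 58.8 CPM in WT1, WT2 and WT3, 65.8, 82.6 and 63.2 in HET1, HET2 and HET3, and 76.4 and 63.4 in KO1 and KO2, it was highest in WT1 and lowest in WT3. Ndufa4l2, a relative of Ndufa4 known to respond to low oxygen, had the lowest, -1.64 (SE 1.18, adjusted p = 0.396), on 35, 13 and 59 reads in WT1 to WT3, 44, 151 and 45 reads in HET1 to HET3 and 2 and 56 reads in KO1 and KO2, so KO1 was the lowest sample and KO2 lay within the range of the others.

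Of 35 further assembly factors, 17 were lower and 0 higher in KO against WT/HET at an unadjusted p under 0.05, with a median log2 fold change of -0.57. For this and the next lists the shares of all genes are again 9.48% lower and 15.7% higher. The lowest was Timmdc1, an assembly factor of the membrane arm of complex I, at -2.11 (SE 0.42, adjusted p = 0.148), and it was at 30.9, 50.6 and 72.3 CPM in WT1, WT2 and WT3, 48.0, 67.7 and 80.0 in HET1, HET2 and HET3, and 24.8 and 9.10 in KO1 and KO2, with KO2 far below every other sample. The highest was Ttc19, a complex III factor, at 0.20 (SE 0.27, adjusted p = 0.670).

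Of 20 enzymes and carriers that feed OXPHOS, 14 were lower and 0 higher in KO at an unadjusted p under 0.05, all 20 had a negative log2 fold change, and they ran from -1.11 (SE 0.37, adjusted p = 0.154) for Idh3a, a subunit of isocitrate dehydrogenase, to -0.12 (SE 0.15, adjusted p = 0.626) for Suclg2, of succinyl-CoA ligase. None of the genes in these lists reached an adjusted p under 0.05.

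Of the 13 subunits encoded by the mitochondrial genome, 8 entered the test and the other 5 (mt-Nd4l, mt-Co2, mt-Co3, mt-Atp6 and mt-Atp8) are listed at 0 reads in every sample. Only uniquely mapped reads were counted, and mt-Co1 held 43807 to 70048 reads a sample, so these counts of 0 cannot be read as absent expression. Among the 8, 1 (mt-Co1) was lower in KO at an unadjusted p under 0.05 and the median was -0.33. mt-Nd1, a core subunit of complex I and the lowest of the list, was at 1510, 1345 and 3958 CPM in WT1, WT2 and WT3, 2767, 3678 and 3965 in HET1, HET2 and HET3, and 1351 and 3125 in KO1 and KO2 and -0.79 (SE 0.41, adjusted p = 0.255), and KO2 lay above HET1. mt-Nd3, the highest by fitted value, held 29 reads in all.

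Among 14 regulators of mitochondrial genes, 3 were lower (Tfam, Tfb2m and Esrra) and 1 higher (Gabpb1) at an unadjusted p under 0.05. These were named after their values were seen, and neither end of the list was among them. Ppargc1a, the coactivator PGC-1α, had the highest fitted value, 2.43 (SE 1.21, adjusted p = 0.238). Its CPM was 3.14, 2.05 and 0 in WT1, WT2 and WT3, 1.44, 0.202 and 0.237 in HET1, HET2 and HET3, and 0.147 and 1.48 in KO1 and KO2. It held 0 to 67 reads a sample, so its fitted value rests on a few reads. The lowest was Myc, a transcription factor that drives growth and mitochondrial genes, at 267, 164 and 1414 CPM in WT1, WT2 and WT3, 881, 756 and 1485 in HET1, HET2 and HET3, and 236 and 839.5 in KO1 and KO2, and its log2 fold change was -1.18 (SE 0.77, adjusted p = 0.351). Its samples stood in nearly the same order as the members, with WT2, KO1 and WT1 lowest and WT3 and HET3 highest.

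The scaling moved the level of all fold changes. With library size alone in place of TMM, the median log2 fold change was 0.41 in place of 0.13 over all genes and -0.32 in place of -0.59 over the members. In that fit 34 members were lower at an unadjusted p under 0.05, against 4.64% of all genes. In the settings of the plot of medians, which leave out the male reference, the median of the members was below that of all genes, whereas with the male samples as the reference it was above it (0.013 against -0.014).

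**Figure D5:**
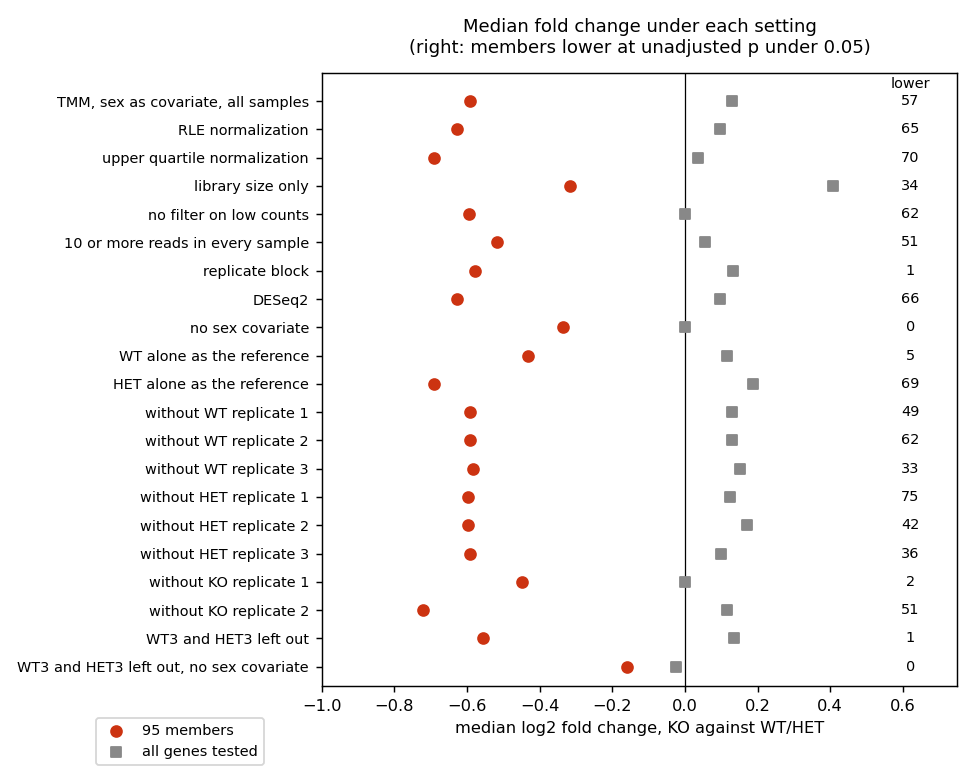
Median log2 fold change in KO against WT/HET (horizontal axis) over the 95 members (circles, 91 where 10 reads were asked of every sample) and over all genes tested (squares) under each setting (rows), with the number of members lower at an unadjusted p under 0.05 at the right. The members lie between -0.72 and -0.16, and the number lower runs from 0 to 75.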

How the data were processed

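RNA-seq was done on pools of 500 LT-HSCs from fetal liver. Per the submitters' processing notes and the study's methods, reads were trimmed (Trim Galore 0.6.6) and aligned to GRCm38/mm10 with STAR 2.7.8, which gave uniquely mapped reads per gene. The authors deposited raw counts for 55487 genes and a table of log2 values, normalized with DESeq2 1.38.3 and corrected for sex by the authors, in the same 8 columns. All columns were used. The counted strand is not given in the sources used here, so 31 members that overlap exons of a gene on the other strand and 5 (Ndufb2, Ndufb8, Ndufb9, Atp5g2 and Atp5o) that overlap 1 on the same strand are uncertain, and members with near-identical copies may be counted too low.

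Symbols came from GENCODE M21. Members and gene lists were chosen with earlier results of these data known. Genes with 10 or more summed reads were fitted with edgeR 4.0.16 (R 4.3.3, TMM, legacy quasi-likelihood test, limma 3.58.1), with sex beside genotype, and p-values were adjusted over all 20610 genes (Benjamini-Hochberg). SE is the absolute log2 fold change divided by the square root of F. DESeq2 1.42.0, other scalings, filters, references and samples were alternatives. Exact permutation tests were two-sided on log2 CPM (prior count 2). Tables and figures were made with Python 3.11.15. The test script was tested on simulated data. Named genes were core subunits, isoform sets, the lowest and highest fold change of each complex, the 5 smallest p in each genotype comparison, members whose KO samples lay beyond all others, and the targeted gene, and others are said to be named after their values were seen, except the printed promoters and the ends of each pathway list, which have rules of their own, and Uqcr10, Atp5l, mt-Co1 and mt-Nd3, which were named after their values were seen.

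Library totals of 17895973 to 21720972 reads put a count of 3 reads at 0.138 to 0.168 CPM. Same-numbered WT and HET samples deviated together from their group means (correlations of 0.293, 0.198 and 0.590 over genes). WT2 and HET1 (0.403) and WT1 and HET2 (0.226) also did, so these values do not show whether the numbers pair these groups. With 2 KO samples, the deviations of KO1 and KO2 mirror each other, so their correlations with any sample differ only in sign. The values with KO (0.278 for WT1 and KO1, -0.346 for WT2 and KO2) therefore cannot show whether the numbers pair. The main fits had no term for the number, and fits with it as a block are given as alternatives. For 1 member and 1 marker gene no value of their own is reported here, and the marker is left out of its list's sum. P-values measure the spread between these samples only.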

Additional observations from a re-analysis of the deposited data

Results flagged for a closer look

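Among the 6 WT/HET samples, Cox4i2 stood apart in HET3, where it was at 0.356 CPM (6 reads) against 4.22 to 16.4 CPM in the others, with a gap to the nearest sample of 0.626 of the whole range on the log2 scale, just above Dixon's limit of 0.625. Cox7b2 stood apart in WT2, at 0.334 CPM (8 reads) against 0 or 1 read in the others, with a gap of 0.709 of the range. All 95 members were looked at in this way, and chance alone flags a small share of such groups (5%).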

How the results depend on the processing

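The median log2 fold change of the members in KO against WT/HET was -0.59 and stayed negative under every alternative but 1: with the male samples as the reference it was 0.013. With WT3 and HET3 left out and no sex covariate it was -0.16. The number of members lower at an unadjusted p under 0.05 (57) was 34 with library size only, 0 with no sex covariate and 5 with WT alone as the reference, ran from 2 to 75 when each sample was left out in turn, and was 1 with WT3 and HET3 left out, or 0 with no sex covariate as well. Among female samples the number (75) was 48 with library size only, ran from 53 to 79 over left-out samples, and was 1 without WT3 and HET3. For male against female samples (59) it was 36 with library size only, ran from 2 to 79, and was 1 without WT3 and HET3. For HET against WT the number higher (1) was 2 with upper quartile scaling and 10 with no filter on low counts. With DESeq2 it was 3, and with no sex covariate 0. Over left-out samples it ran from 0 to 66, the 66 being without WT3 (9.51% of all genes). Without WT3 and HET3 it was 70 (13.7% of all genes), 50 of the members then having an adjusted p under 0.05. The share of all genes past the adjusted threshold in that fit is not given here. Both fits set HET1 alone against WT1 and WT2, so their counts rest on 1 HET sample. With no filter on low counts, 3 members reached an adjusted p under 0.05 in KO, 45 among female samples and 34 between the sexes. With DESeq2 these were 30, 69 and 42. Over left-out samples they were 0 to 0 in KO, 0 to 53 among female samples and 0 to 56 between the sexes. The cause was not tested, and shares of all genes stand beside these counts only where given above. Leaving out WT3 and HET3, the male reference, the interaction and the members with few shared windows were chosen after seeing the data. Where a fit left 1 sample in an arm, that sample was assumed to vary like the others.

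With the replicate number as a block, 1 member was lower in KO against WT/HET in place of 57, 60 among female samples in place of 75, 1 between the sexes in place of 59, and 1 was higher and 1 lower in HET against WT in place of 1 and 0. Number 1 is male in WT and HET and female in KO, and number 3 is female throughout and holds no KO sample. Depth limits Cox7b2, Cox7a1 and Ndufa4l2, with 19, 206 and 405 reads in all.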
